A study of Mus musculus with 4 samples.

Results

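Germline-negative mesenchyme is the set of lung mesenchymal barcodes in which none of 6 germline genes had a UMI, so its members were chosen by their measured UMIs. A barcode belonged to it if it had at least 500 genes, at most 20% mitochondrial UMIs and at least 3000 UMIs, if Col1a1, Col1a2 and Col3a1 together made up at least 0.5% of its UMIs, and if it had no UMI of Epcam, Cdh5, Ptprc or Upk3b, which mark epithelium, endothelium, blood cells and mesothelium. It also had no UMI of Dazl, Rpl39l, Taf7l, Tex101, Trap1a or Tex19.1, genes that are normally active in germ cells and silent in the body. The rule kept 3256 of the 27815 deposited barcodes, 2662 from wild type and 594 from Dnmt1 CKO libraries. In order of wild type replicates 1 and 2 and Dnmt1 CKO replicates 1 and 2, the order used for all values below, it kept 1256, 1406, 150 and 444 barcodes. These were 100%, 99.8%, 10.1% and 29.8% of the mesenchymal barcodes, so most of the mutant mesenchyme fell outside the set.

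The 4 libraries were droplet 3′ single-cell libraries of whole mouse lung at E18.5. There were 2 wild type libraries and 2 of the Dnmt1 CKO, which carries Tbx4-rtTA and Tet-O-Cre transgenes with Dnmt1-D/D alleles. In such a mutant the Tbx4 sequences drive a doxycycline-dependent activator in lung mesenchyme, the activator turns on Cre, and Cre removes part of Dnmt1 in the cells that make it. Epithelium, endothelium and blood are not the target and are present in the same suspensions. The labels do not say which exons are removed, when doxycycline was given or whether the libraries are from different animals. The p-values measure only the spread between these libraries.

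Dnmt1 copies DNA methylation onto the new strand after replication, and without it dividing cells lose methylation passively. A group of germline genes with CG-rich promoters is held silent in somatic cells by this methylation, and these genes are a common readout of its loss. Recombination by Cre is often incomplete, which leaves cells of the targeted lineage with an intact gene beside deleted ones. The mesenchyme of the late fetal lung holds matrix fibroblasts, which include lipid-storing cells, alveolar myofibroblasts, adventitial fibroblasts, pericytes and smooth muscle.

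The libraries held 48213065 to 56760219 UMIs in all, and the members 8256397, 11873058, 1182954 and 2774353 UMIs, with medians of 6156, 7932, 7620 and 5988 per barcode. Any 2 libraries shared between 8 and 16 barcode sequences, and no member barcode was shared as a member by any pair. Y-linked transcripts were at 0 in the members of wild type replicate 1 and Dnmt1 CKO replicate 2, in which Xist was abundant, and at 288 and 216 CPM in those of wild type replicate 2 and Dnmt1 CKO replicate 1. Scrublet called 27, 18, 0 and 1 of the members doublets, and they were kept.

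Dnmt1 transcripts in germline-negative mutant mesenchyme differed from wild type by less than the spread between libraries. Dnmt1 (ENSMUSG00000004099.16) is a protein-coding gene on the minus strand of chromosome 9, from 20907209 to 20959888 in GRCm38. It was read at 26.9, 26.4, 36.3 and 23.4 CPM (UMIs per 1000000 UMIs of the summed members), from 222, 314, 43 and 65 UMIs. The mutant values lay on either side of the wild type values. The log2 fold change, Dnmt1 CKO over wild type, was 0.14 (SE 0.27, 95% interval -0.43 to 0.71, adjusted p = 0.922, edgeR quasi-likelihood test with Benjamini-Hochberg adjustment). It changed sign to -0.31 with at least 1% collagen UMIs and to -0.14 without Dnmt1 CKO replicate 1. The reads come from the 3′ end, and a deletion elsewhere in the gene that left the transcript's end in place would not show in them.

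Beside this, mutant mesenchymal barcodes with germline UMIs had 5.59 and 6.24 CPM of Dnmt1, from 59 and 43 UMIs in 1329 and 1048 barcodes. Just outside the rule, the 67 and 70 mutant barcodes with a single germline UMI had 7.76 and 21.1 CPM of Dnmt1, from 4 and 9 UMIs. With 2 to 3 germline UMIs the values were 2.38 and 5.03, with 4 to 9 they were 5.27 and 3.5, and with 10 or more they were 6.58 and 7.10. The median number of germline UMIs in the positive barcodes was 8 in each mutant library. Since the germline genes separated these barcodes, the values are a description and were not tested. The lineages outside the Cre target had 19.12, 18.6, 23.0 and 15.1 CPM of Dnmt1 in Epcam-positive, 75.6, 62.4, 66.8 and 66.2 in Cdh5-positive and 56.9, 62.6, 78.6 and 42.2 in Ptprc-positive barcodes, each with at least 2 UMIs of its own marker and none of the others.

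**Figure D1:**
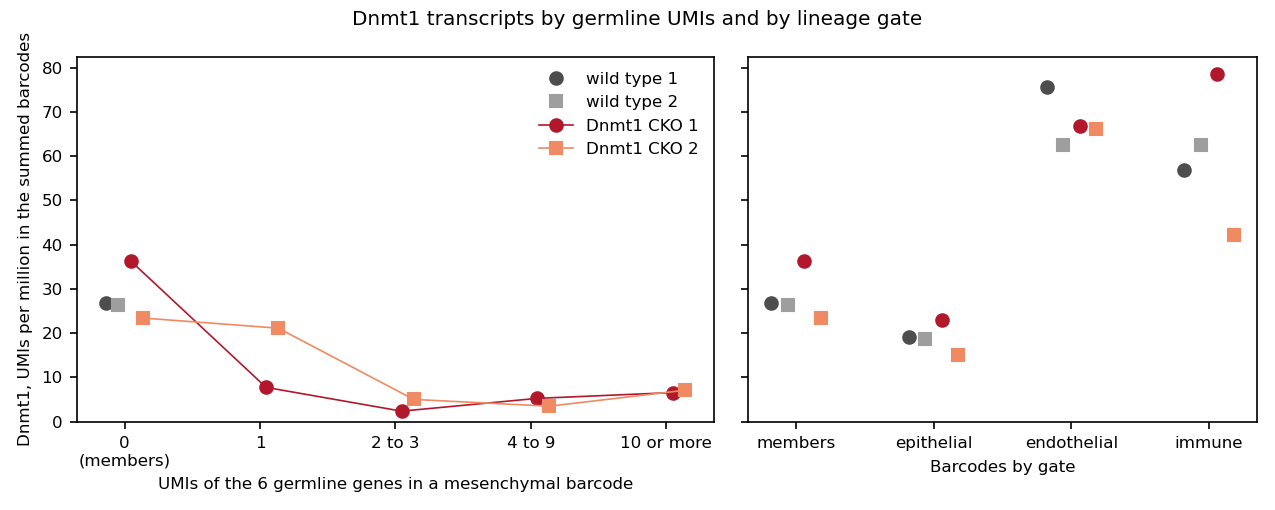
Dnmt1 CPM in summed barcodes, by number of UMIs of the 6 germline genes in mesenchymal barcodes (left) and by lineage gate (right), with 1 point per library and lines joining the bins of a mutant library. The mutant barcodes without germline UMIs (36.3 and 23.4) sit beside the wild type (26.9 and 26.4), and those with 2 or more germline UMIs lie at or below 7.10.

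Dnmt1 was also read within clusters of the members. Leiden clustering of the members at a resolution of 1.0 gave a myofibroblast-like cluster, led by Tgfbi, Wif1, Enpp2 and Pdlim3, with 225, 185, 16 and 67 barcodes. Its Dnmt1 was at 20.5, 30.3, 9.42 and 6.20 CPM, from 22, 34, 1 and 2 UMIs. The ratio of the pooled counts was 0.274, with an exact 95% counting interval of 0.0550 to 0.844. That interval covers counting error only, and the cluster was singled out after its values were seen. In the adventitial fibroblast-like cluster Dnmt1 was at 7.997, 20.2, 10.5 and 3.99 CPM, from 3, 14, 1 and 1 UMIs, and the ratio of 0.363 had an interval of 0.0407 to 1.53. In the cycling-like cluster it was at 136, 117, 117 and 85.3 CPM. This cluster was 3.18%, 0.925%, 6% and 4.28% of the members. Its part in the Dnmt1 level of all members was not tested.

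Barcodes near the thresholds of the rule were counted as well. Barcodes with 0.4 to under 0.5% collagen UMIs that met the rest of the rule had 23.5, 20.7, 40.2 and 23.4 CPM of Dnmt1, and members with 0.5 to under 0.6% had 20.1, 23.5, 25.8 and 7.43. The last of these rests on 4 UMIs. Barcodes with 2700 to 2999 UMIs held 0, 0, 0 and 2 Dnmt1 UMIs, and members with 3000 to 3299 UMIs held 2, 0, 0 and 0.

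Of the 6 germline genes, Dazl is a well-known target of silencing by promoter methylation and encodes an RNA-binding protein of germ cells. It was at 473 and 716 CPM in the germline-positive barcodes of the mutants, at 8.63 and 8.98 in their Epcam-positive and 25.1 and 23.5 in their Ptprc-positive barcodes, and at 0 in the members by the rule. The 250 bases before its start (RefSeq, GRCm38.p6, chr17:50293621-50293870, minus strand) are shown as the most CG-rich among the 6 genes of the rule. Capitals mark the 20 CG pairs. The other 5 had 7 (Trap1a) to 15 (Tex19.1), and promoters in the same table had a median of 6.
Dazl: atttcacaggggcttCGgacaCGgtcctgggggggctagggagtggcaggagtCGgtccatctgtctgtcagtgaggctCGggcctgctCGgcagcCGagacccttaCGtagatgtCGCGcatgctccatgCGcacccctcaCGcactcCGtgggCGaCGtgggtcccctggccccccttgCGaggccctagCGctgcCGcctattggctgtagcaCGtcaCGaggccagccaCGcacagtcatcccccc

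Germline genes that the rule did not use were tested in the members. Of 50 other germline genes, 7 passed the filter on low counts and 2 rose, Rhox5 and Slc25a31, while none fell. Over all 12826 genes tested, 51 were called, which is 0.398%. Rhox5, an X-linked homeobox gene of testis and placenta, was at 3.51, 5.81, 34.7 and 15.9 CPM in the members, and both mutant libraries were above both wild type libraries (log2 fold change 2.35, SE 0.39, adjusted p = 0.0175, edgeR). Rhox5 stood at 211 and 181 CPM in the germline-positive barcodes. In the same mutant libraries it was at 2.83 and 3.1 in Epcam-positive, 9.97 and 8.34 in Cdh5-positive and 15.01 and 5.34 in Ptprc-positive barcodes.

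Slc25a31, the germ cell form of the mitochondrial ADP/ATP carrier, had 1 UMI in each wild type library and 13 UMIs in the mutant members, a ratio of 33.1 with an exact 95% counting interval of 7.49 to 302 (edgeR adjusted p = 0.0439). Its 3.38 and 3.24 CPM in mutant members compare with 64.3 and 64.5 in germline-positive barcodes. Epcam-positive, Cdh5-positive and Ptprc-positive barcodes of the same libraries, which are outside the Cre target, had 2.46 and 1.49, 3.03 and 2.15, and 2.36 and 3.74 CPM of Slc25a31. The values in the members lay near those in these lineages, and the source of these UMIs was not tested. In the mutant libraries the Slc25a31 of cluster 8, led by Lum, Dcx and Dcn and left without a name, was 18.1 and 11.9 CPM. Its Rhox5 was 84.3 and 35.6. The cluster held 166080 and 168561 UMIs in these libraries, so its Slc25a31 values rest on few UMIs.

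The 50 germline genes summed to 72.9, 79.0, 132 and 91.5 CPM in the members and to 1049 and 1058 in germline-positive mutant barcodes. A large part of the wild type sums was Asz1, a germ cell protein, at 50.3, 42.4, 14.4 and 27.0 CPM, which was lower in both mutant libraries and did not pass (log2 fold change -1.05, adjusted p = 0.147, edgeR). In cluster 8 they summed to 31.1, 46.8, 367 and 220 CPM, with 42, 36, 21 and 25 barcodes. Without cluster 8 the count of called genes over all members was 96, of which 46 were among the 51. The part of barcodes whose germline UMIs were missed in this was not tested.

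Xist, the RNA that silences an X chromosome, gave a second view of Dnmt1 CKO replicate 1, a library with Y-linked transcripts in which Xist should be silent. After each barcode was thinned to 3000 UMIs, 15 of 150 members of that library (10.0%, exact 95% interval 5.71 to 15.96%) had a Xist UMI. In the germline-positive barcodes of the same library 998 of 1329 had one (75.1%). The Epcam-positive, Cdh5-positive and Ptprc-positive barcodes had Xist in 2.59%, 5.46% and 5.16%, and the wild type library with Y-linked transcripts had it in 0 of 1406 members, which allows a share of up to 0.213% of barcodes with a UMI. The median depths were 7620 UMIs for the members, 7313 for the germline-positive barcodes and 12920, 8094 and 10010 for the other lineages. Without thinning, the Xist shares in that library were 10.0% and 77.4% of members and germline-positive barcodes. Cluster 8 held 9 of the 15 members with Xist after thinning.

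No gene of the DNA methylation machinery was called in the members. All 21 genes of this list were tested, with a median log2 fold change of 0.01 beside -0.0081 over all genes. The smallest adjusted p was that of Hells, a chromatin remodeller that helps Dnmt1, at 15.7, 12.97, 27.1 and 18.7 CPM (log2 fold change 0.65, SE 0.28, adjusted p = 0.440, edgeR). Uhrf1, which brings Dnmt1 to newly copied DNA, was at 8.60, 4.80, 12.7 and 9.37 CPM (adjusted p = 0.607, edgeR). Of 30 tested genes on a list of imprinted genes, a class in which methylation can mark the copy from 1 parent, 24 had positive log2 fold changes. In this list 1 rose and none fell, and the median was 0.24. The gene that rose was Dcn, a matrix protein described below. It is also an adventitial fibroblast marker and a leading gene of cluster 8, and methylation was not measured. Dlk1, a Notch family ligand expressed from the paternal copy, was at 199, 206, 404 and 356 CPM (log2 fold change 0.93, adjusted p = 0.0581, edgeR).

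The members of the mutant libraries nevertheless differed from wild type. The test called 51 of 12826 genes at an adjusted p under 0.05, 29 higher (0.226%) and 22 lower (0.172%) in Dnmt1 CKO, and 1333 had an unadjusted p under 0.05. DESeq2 called 117, of which 48 were among the 51. Groups did not overlap in any of the 51, and they did not overlap in 40.9% of all genes tested. The count moved with each library: leaving out wild type replicate 1 gave 638 calls, wild type replicate 2 gave 176, Dnmt1 CKO replicate 1 gave 150 and Dnmt1 CKO replicate 2 gave 347, and 50, 49, 43 and 44 of the 51 were among them. It was 9 with at least 1% collagen UMIs, all among the 51, and 15 with equal numbers of barcodes, 14 among the 51. The 24 genes named below are the 12 largest rises and 12 largest falls. They were taken from the calls that averaged at least 4 on the log2 CPM scale. Groups that do not overlap were a further condition for naming. All 24 kept their direction in every alternative in which they were tested, and Saa3, Ccl2, Icam1, Nppc and Enpp2 kept their call in each.

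**Figure D2:**
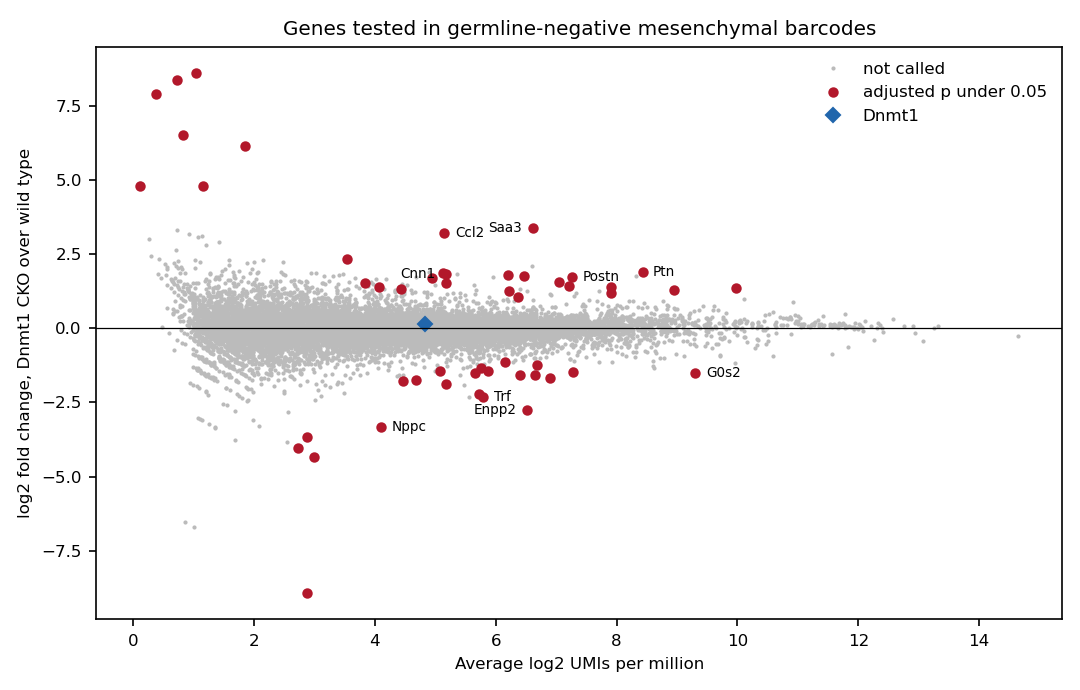
Log2 fold change (Dnmt1 CKO over wild type) against the average log2 CPM for each of the 12826 genes tested in the members, with the 51 called genes in red and Dnmt1 as a blue diamond. Dnmt1 lies at 0.14, and the named examples reach 3.38 for Saa3 and -3.32 for Nppc. The extreme points at low abundance are genes with few or no UMIs in a group, whose fitted values depend on the prior count.

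Some acute-phase and inflammatory genes rose in the mutant members. Of 28 genes in this list 24 were tested, 5 rose and none fell, beside 0.226% of all genes tested called higher. Of the 24, 20 had positive log2 fold changes, with a median log2 fold change of 0.84 beside -0.0081 over all genes. The gene lists were chosen with earlier results of these data known, so their counts and medians are a description. The 5 were Ccl2, Saa3, Icam1, Cxcl1 and Ccl11. Chemokines are secreted signals that draw leukocytes into tissue. Immune cell markers, of which Ptprc was at 0 by the rule, summed to 68.3, 37.4, 50.7 and 115 CPM in the same members, and their part in these rises was not tested.

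Ccl2 (chromosome 11, 82035571 to 82037453), the chief chemokine for monocytes, was at 6.18, 9.10, 76.1 and 66.3 CPM. The mutant libraries were close to each other and far above wild type (log2 fold change 3.22, SE 0.27, adjusted p = 0.000161, edgeR). Germline-positive mutant barcodes had 49.8 and 113 CPM of Ccl2. It was abundant in Ptprc-positive barcodes of all libraries, at 1182, 773, 1032 and 1339 CPM, and was at 1.55, 1.34, 10.6 and 11.4 in Epcam-positive barcodes.

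Saa3 (chromosome 7, 46711998 to 46715700), an acute-phase serum amyloid, was at 15.9, 20.1, 297 and 83.3 CPM (log2 fold change 3.38, SE 0.43, adjusted p = 0.00385, edgeR). The mutant libraries differed from each other, and both were above wild type. In germline-positive barcodes Saa3 was at 762.5 and 1412 CPM, so the order of the mutant libraries was the other way round there. Outside the mesenchyme Saa3 was at 5.28, 22.6, 148 and 55.5 CPM in Epcam-positive barcodes, where it did not pass (adjusted p = 0.900, edgeR). It rose in Cdh5-positive barcodes, at 0, 0.245, 15.6 and 40.8 CPM (adjusted p = 0.000915, edgeR). In cluster 7 of the members it was at 0 in every library. Saa3 has similar neighbours in its family, between which reads may be split.

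Cxcl1 (chromosome 5, 90891241 to 90893115), a neutrophil chemokine, was at 10.9, 21.2, 47.3 and 67.0 CPM (log2 fold change 1.87, SE 0.31, adjusted p = 0.0163, edgeR). Its call was lost with at least 1% collagen UMIs, with a wider germline rule and with equal barcodes. The wider rule added 15 genes and removed wild type members too, keeping 1036, 1068, 114 and 353 barcodes. Its added genes summed to 57.9, 54.3, 55.0 and 50.8 CPM in the members. Icam1, the adhesion molecule that leukocytes hold on to, was at 19.9, 19.6, 53.3 and 58.0 CPM (log2 fold change 1.53, SE 0.23, adjusted p = 0.00916, edgeR). Ccl11, an eosinophil chemokine, was at 35.2, 55.2, 98.9 and 111 CPM (log2 fold change 1.25, adjusted p = 0.0394, edgeR). In all of these the mutant libraries were both above the wild type libraries. Interferon response genes did not follow them: none of 23 tested passed, and the median was -0.11.

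NF-kappaB, a factor that drives many inflammatory genes, recognises sites that include the form GGGA, any 2 bases and TTCC. Cxcl1 is one of its textbook targets. The 250 bases before the start of Cxcl1 (RefSeq, GRCm38.p6, chr5:90890995-90891244, plus strand) are shown with letters that match this motif on either strand in capitals. There were 2 matches, which overlap, and 1.21% of all promoters in the table held 1 or more. No matches to this form were found in this window of Saa3 or Icam1, and no other gene of the named 12 rises with an entry held one. Sites that depart from this form were not looked for. Of the falls, 1 of 3 listed starts of Mme had a match.
Cxcl1: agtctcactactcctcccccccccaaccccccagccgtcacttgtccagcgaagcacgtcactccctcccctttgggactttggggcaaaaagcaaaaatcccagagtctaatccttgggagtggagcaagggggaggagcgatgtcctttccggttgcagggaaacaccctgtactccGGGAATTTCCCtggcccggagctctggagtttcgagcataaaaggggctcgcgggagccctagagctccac

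Of 10 small leucine-rich proteoglycans tested, which coat collagen fibrils, Lum, Aspn and Dcn rose and none fell, with a median log2 fold change of 0.35. Over all genes tested, 0.226% were called higher. Lum was at 36.0, 32.1, 147 and 91.6 CPM (log2 fold change 1.81, SE 0.24, adjusted p = 0.00469, edgeR). Aspn, which binds growth factors of the Tgf-beta family, was at 116, 151, 363 and 328 CPM (log2 fold change 1.40, SE 0.21, adjusted p = 0.00916, edgeR). Dcn was at 291, 278, 775 and 604 CPM (log2 fold change 1.30, adjusted p = 0.0175, edgeR). All mutant values exceeded all wild type values for these 3 genes.

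Postn, a matrix protein of pericytes and activated fibroblasts, was at 65.3, 79.6, 253 and 217 CPM (log2 fold change 1.72, SE 0.20, adjusted p = 0.00242, edgeR). Mfap5, a microfibril protein, was at 75.3, 61.3, 221 and 174 CPM (log2 fold change 1.55, SE 0.21, adjusted p = 0.00554, edgeR), and it was the only call among 19 elastic fibre genes, whose median was 0.29. Hmcn1, a giant matrix protein, was at 76.3, 85.6, 260 and 173 CPM (log2 fold change 1.43, adjusted p = 0.0117, edgeR). The mutant libraries lay above both wild type libraries for each. Mfap5 was lower in the germline-positive barcodes than in the germline-negative ones of the same libraries, at 56.8 and 61.5 CPM, which is at the wild type members' level.

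Ptn, a heparin-binding growth factor, was at 156, 138, 712 and 368 CPM (log2 fold change 1.89, SE 0.28, adjusted p = 0.00879, edgeR). Prss35, a secreted protease-like protein, was at 43.8, 38.8, 194 and 87.9 CPM (log2 fold change 1.76, SE 0.30, adjusted p = 0.0175, edgeR). Cnn1, an actin-binding protein of smooth muscle, was at 13.7, 19.8, 52.4 and 64.9 CPM (log2 fold change 1.84, SE 0.26, adjusted p = 0.00554, edgeR), and was the only gene called among 18 contractile genes, of which 14 had positive log2 fold changes and whose median was 0.74. Like Mfap5, Cnn1 was lower in germline-positive mutant barcodes, at 29.9 and 16.8 CPM. Of 17 other collagens tested none passed, and their median was -0.27. Col1a1, Col1a2 and Col3a1 belong to the rule and were not tested, and they summed to 9383, 10650, 13620 and 11580 CPM.

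**Figure D3:**
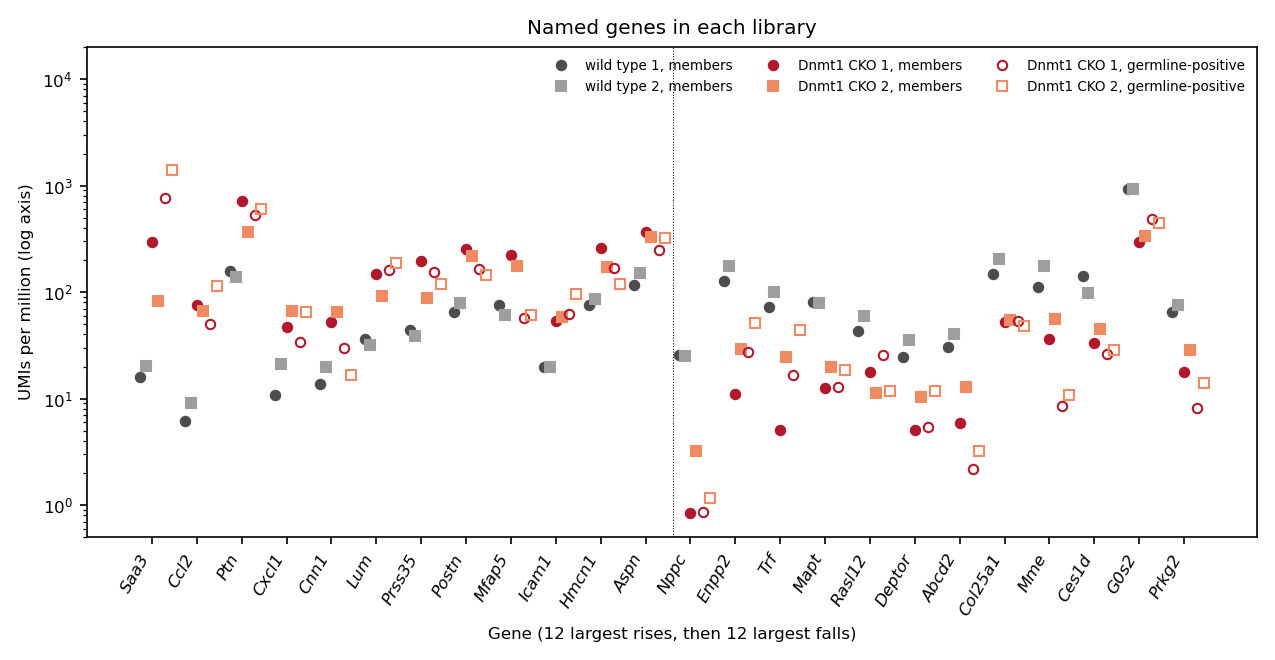
CPM (log axis) of the 12 largest rises and 12 largest falls, with filled symbols for the members of each library and open symbols for germline-positive mutant barcodes. For every gene the 2 mutant member values lie on the same side of both wild type values, which was a condition for naming it. Open symbols part from filled ones at Saa3 (762.5 and 1412 against 297 and 83.3), Mfap5, Cnn1 and Mme.

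The natriuretic peptide and cGMP genes held the largest named fall. Of 11 genes of this list tested, Nppc, Prkg2 and Npr3 fell and none rose, with a median log2 fold change of -0.28. Nppc (chromosome 1, 86666291 to 86670571), the C-type natriuretic peptide, was at 25.7, 25.1, 0.845 and 3.24 CPM, which is 1 and 9 UMIs in the mutant members (log2 fold change -3.32, SE 0.41, adjusted p = 0.00294, edgeR). Npr3, the receptor that clears natriuretic peptides, was at 162, 287, 60.02 and 94.8 CPM (log2 fold change -1.47, SE 0.28, adjusted p = 0.0400, edgeR). Prkg2, a kinase that cGMP activates, was at 64.6, 75.3, 17.8 and 28.8 CPM (log2 fold change -1.49, SE 0.26, adjusted p = 0.0215, edgeR), and its call was lost without Dnmt1 CKO replicate 1. All 3 were lower in both mutant libraries than in either wild type library. Every called gene had groups that do not overlap, so this order adds nothing to the calls. Of the 11 genes, 4 had positive log2 fold changes. Over all genes tested, 0.172% were called lower.

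The germline-positive barcodes had 0.853 and 1.16 CPM of Nppc, 52.0 and 75.3 of Npr3 and 8.15 and 14.1 of Prkg2. Nppc was the largest named fall, and its promoter is shown as that of Dazl was. The part of its CG pairs in the fall was not tested. The 250 bases before its start (RefSeq, GRCm38.p6, chr1:86670574-86670823, minus strand) hold 24 CG pairs, marked in capitals. Methylation itself was not measured in these libraries.
Nppc: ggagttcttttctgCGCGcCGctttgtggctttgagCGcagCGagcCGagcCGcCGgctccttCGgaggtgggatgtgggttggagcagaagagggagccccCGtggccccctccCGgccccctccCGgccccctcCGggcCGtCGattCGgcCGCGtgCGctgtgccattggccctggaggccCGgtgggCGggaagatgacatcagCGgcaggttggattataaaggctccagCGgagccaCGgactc

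Enpp2, the enzyme that makes lysophosphatidic acid, was at 127, 177, 10.99 and 29.2 CPM (log2 fold change -2.76, SE 0.32, adjusted p = 0.00242, edgeR). It is among the leading genes of the myofibroblast-like cluster, where it was at 816, 1606, 65.9 and 186 CPM. Of 11 myofibroblast markers tested, 1 rose (Aspn) and 1 fell (Enpp2), and the median was -0.07. Acta2, smooth muscle actin, was at 902, 559, 1617 and 1245 CPM (log2 fold change 0.99, adjusted p = 0.124, edgeR).

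Among genes of lipid handling, G0s2, an inhibitor of triglyceride breakdown, was at 925, 924, 298 and 337 CPM (log2 fold change -1.52, SE 0.22, adjusted p = 0.00606, edgeR). Ces1d, a carboxylesterase, was at 142, 98.1, 33.0 and 45.4 CPM (log2 fold change -1.56, adjusted p = 0.0154, edgeR), and Abcd2, a peroxisomal fatty acid transporter, at 30.8, 40.0, 5.92 and 12.98 (log2 fold change -1.74, adjusted p = 0.0367, edgeR). Of 15 lipofibroblast genes tested only G0s2 was called, and the median was -0.36. Tcf21, a transcription factor of lipofibroblasts, was at 516, 499, 234 and 327 CPM (log2 fold change -0.82, adjusted p = 0.147, edgeR). None of 22 fatty acid and cholesterol synthesis genes was called.

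Trf, the iron carrier transferrin, was at 72.4, 100, 5.07 and 24.5 CPM (log2 fold change -2.31, SE 0.39, adjusted p = 0.0175, edgeR), and DESeq2 did not call it. Mapt, a microtubule-associated protein, was at 80.7, 79.7, 12.7 and 19.8 CPM (log2 fold change -2.20, SE 0.26, adjusted p = 0.00242, edgeR). Mme, a membrane peptidase, was at 112, 177, 36.4 and 55.5 CPM (log2 fold change -1.59, SE 0.27, adjusted p = 0.0175, edgeR). Col25a1, a membrane collagen, was at 147, 204, 52.4 and 54.8 CPM (log2 fold change -1.68, adjusted p = 0.00469, edgeR). Deptor, an inhibitor of mTOR kinase, was at 24.5, 35.7, 5.07 and 10.5 CPM, and Rasl12, a small GTPase, at 42.9, 59.6, 17.8 and 11.2. In each of these 6 genes both mutant libraries were below both wild type libraries, and Mme was lower still in germline-positive barcodes, at 8.43 and 10.9 CPM.

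The calls with an average log2 CPM under 4 had few counts. Slc13a4, a sulfate transporter, had 196 UMIs in wild type and none in mutant members, and was at least 12.8-fold lower against a floor of 3 UMIs over the group. Clca3a2, which has close copies beside it in the genome, had none in wild type and 23 in mutant members, and was at least 39-fold higher against the same floor. Its UMIs lay in cluster 7, at 78.8 and 37.8 CPM. Eva1c, Fsd2 and Cyp2e1 had 174, 227 and 196 UMIs in wild type and 2, 2 and 3 in mutant members, with ratios of 0.0585, 0.0448 and 0.0779 and exact 95% counting intervals of 0.00703 to 0.214, 0.00540 to 0.164 and 0.0159 to 0.231. Of the 51 calls, 6 were unnamed gene models, all higher in the mutant.

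**Figure D4:**
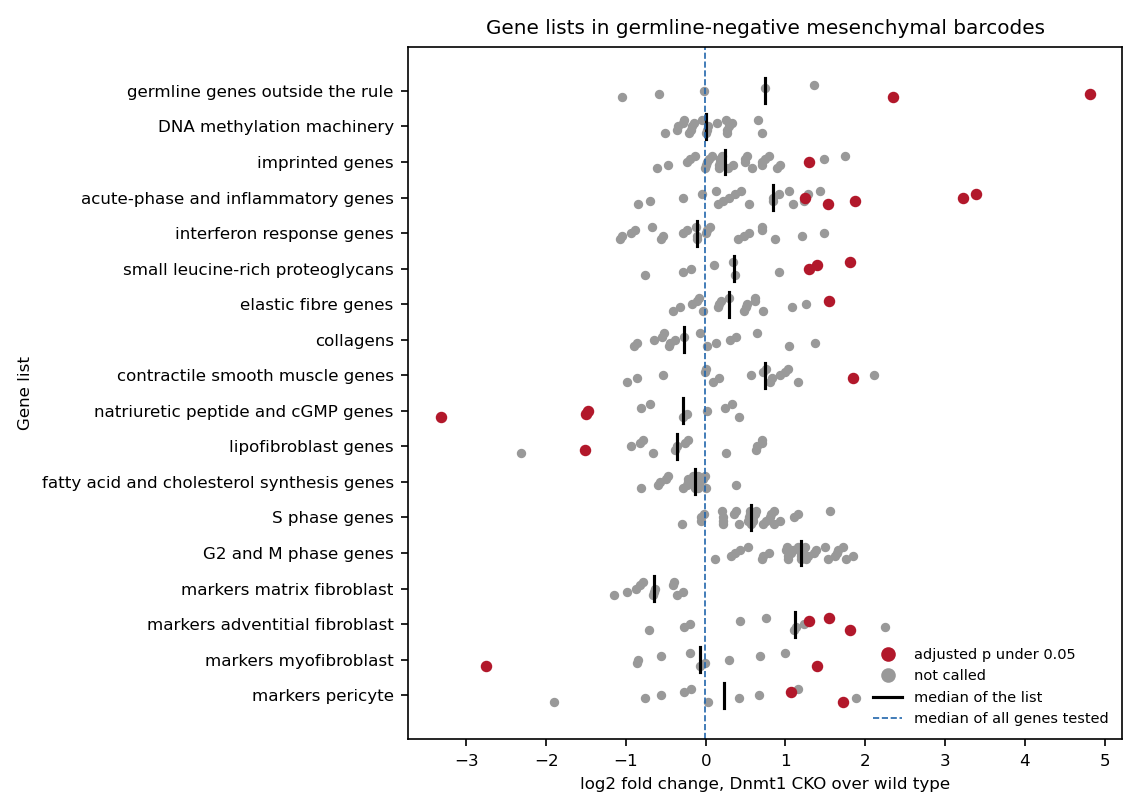
Log2 fold change (Dnmt1 CKO over wild type) of each tested gene in 18 lists, with called genes in red, the list median as a black bar and the median of all genes as a dashed line. The 5 inflammatory calls and the 3 proteoglycan calls lie to the right, the 3 natriuretic peptide and cGMP calls to the left, and the G2 and M phase genes lie to the right with none called.

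Cell cycle genes were higher on average without a call. All 32 genes of the G2 and M phase list were tested, and all 32 had positive log2 fold changes with a median of 1.20 beside -0.0081 over all genes, but none passed (smallest adjusted p = 0.0564, for Top2a, edgeR). Top2a, which untangles DNA in mitosis, was at 37.4, 24.3, 85.4 and 63.8 CPM. Of 30 S phase genes 26 had positive values, with a median of 0.57 and no call. The Mcm6 helicase subunit was at 11.4, 11.2, 35.5 and 17.3 CPM (adjusted p = 0.152, edgeR). In germline-positive barcodes Top2a was at 110 and 69.5 CPM.

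The share of cells told the same order. After thinning to 3000 UMIs, Mki67 or Top2a was found in 5.97%, 3.49%, 10.7% and 8.33% of the members, with exact 95% intervals of 4.72 to 7.43%, 2.59 to 4.58%, 6.22 to 16.7% and 5.94 to 11.3%. Mutant libraries were above wild type, with means of 9.50% and 4.73%, and the intervals of wild type replicate 1 and the mutant libraries overlapped. Without thinning, the shares with Mki67 or Top2a were 9.32%, 7.33%, 14% and 11.9%. Germline-positive barcodes had 11.5% and 8.78%. In Epcam-positive barcodes, at median depths of 11530 to 14060 UMIs, the thinned shares were 4.65%, 5.99%, 6.03% and 4.48%. With 2 libraries a side an exact permutation test cannot go below p = 0.333, so none was run.

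The make-up of the members differed between libraries, which bears on all of these values. The 12 markers of matrix fibroblasts, the commonest cells here, all had negative log2 fold changes with a median of -0.65, none of them called, and summed to 19590, 20730, 11610 and 15710 CPM. Of 12 adventitial fibroblast markers, Lum, Mfap5 and Dcn rose and the median was 1.12. Of 12 pericyte markers, Postn and Rgs5 rose and the median was 0.23. In such sums, fewer cells of a type and less RNA per cell cannot be told apart. The matrix fibroblast-like clusters were 63.3%, 70.6%, 26% and 17.3% of the members, and the unnamed cluster 5 was 1.19%, 0.284%, 17.3% and 39.6%. These shares depend on how clusters were cut and named. At a Leiden resolution of 0.5 an adventitial fibroblast-like cluster held 110, 113, 38 and 215 members. At 2.0 a cluster led by Scgb1a1, with 17, 4, 26 and 113 members, was named adventitial fibroblast-like. Cluster 7, led by Postn, was 4.06%, 3.56%, 14% and 6.31%, and cluster 8, led by Lum, was 3.34%, 2.56%, 14% and 5.63%. The part of these shares in the called changes was not tested.

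Comparison within a class removes part of this. The matrix fibroblast-like clusters held 795, 992, 39 and 77 members. In wild type replicate 1, 441 of these were in cluster 2, 265 in cluster 0 and 48 in cluster 9, and in wild type replicate 2, 402 were in cluster 3, 284 in cluster 0 and 217 in cluster 4. In the mutant libraries 32 and 64 were in cluster 0. Cluster 5 also scored highest for the matrix fibroblast list (score 0.421, with 12 markers detected). It was left without a name, so its 15, 4, 26 and 176 members are outside this class. Within the class 78 of 10916 genes (0.715%) were called, 46 higher (0.421%) and 32 lower (0.293%). DESeq2 called 53, of which 47 were among the 78. Without wild type replicate 1 the count was 147. Of the 24 named genes 23 were tested in this class and 14 were called there, in the same direction as in all members. The class is part of the members, so these calls are not independent of those over all members. Mapt was among the leading genes of cluster 2, and Mme and Rasl12 among those of cluster 3. The mutant libraries had 5 and 5 members in cluster 2 and 1 and 2 in cluster 3. The part of this make-up in the calls was not tested. In the class as a whole Dnmt1 was at 23.6, 23.5, 48.9 and 23.5 CPM.

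Saa3 was at 21.7, 25.0, 388 and 228 CPM in matrix fibroblast-like members (log2 fold change 3.69, SE 0.29, adjusted p = 4.85e-09, edgeR). Ccl2 was at 5.67, 11.63, 65.2 and 37.9 CPM (log2 fold change 2.47), and Prss35 at 3.21, 3.41, 97.7 and 37.9 (log2 fold change 4.24). Ptn was at 21.0, 14.2, 48.9 and 112 CPM (log2 fold change 2.28), and Nppc at 36.8, 33.5, 3.26 and 9.03 (log2 fold change -2.34, adjusted p = 0.0265, edgeR). Rspo1, an activator of Wnt signalling, was at 28.7, 39.1, 3.26 and 5.42 CPM (log2 fold change -2.86, adjusted p = 0.0108, edgeR). The mutant libraries lay on the same side of wild type in all of these. Lum (log2 fold change 1.42, adjusted p = 0.619), Postn (0.72, adjusted p = 0.939), Icam1 (1.01, adjusted p = 0.451) and Enpp2 (-0.97, adjusted p = 0.895) did not pass within the class (edgeR).

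In cluster 0 alone, which held 265, 284, 32 and 64 members, 29 of 8787 genes (0.33%) were called, 24 higher (0.273%) and 5 lower (0.0569%), and 11 by DESeq2. This count fell to 3 without Dnmt1 CKO replicate 2 and was 56 without Dnmt1 CKO replicate 1. Saa3 (log2 fold change 3.31), Prss35 (3.33), Ptn (2.73) and Ccl2 (2.2) rose there. Cluster 0 is part of the matrix fibroblast-like class and of the members, so these values reuse the same UMIs and are no separate check. Hhip, an inhibitor of Hedgehog signalling, was at 296, 478, 80.6 and 95.7 CPM in cluster 0 (log2 fold change -2.08, SE 0.29, adjusted p = 4.04e-05, edgeR). In all members Hhip was at 596, 697, 262 and 433 CPM and was not called (adjusted p = 0.183, edgeR).

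Cluster 7, led by Postn, Ebf1 and Ptn and close to both pericyte and adventitial markers, held 51, 50, 21 and 28 members. In it 5 of 4931 genes (0.101%) were called, all higher, and 344 had an unadjusted p under 0.05. DESeq2 called 3. Leaving out each library gave 38, 15, 39 and 25 calls in turn. Ccl2 was at 15.9, 1.95, 221 and 156 CPM there (log2 fold change 4.42, SE 0.52, adjusted p = 0.00114, edgeR), and Actg2, an actin of visceral muscle, at 15.9, 15.6, 126 and 218 CPM (log2 fold change 3.44, adjusted p = 0.00114, edgeR). Both mutant libraries were far above wild type for both genes. The other calls there were Clca3a2, Hbb-bt, a haemoglobin chain, and Iigp1, an interferon-induced GTPase. Haemoglobin summed to 401, 490, 15540 and 671 CPM in cluster 7, so most of it was in Dnmt1 CKO replicate 1. Its source was not tested. In cluster 8 only Ckb, a creatine kinase, was called of 4049 genes (0.0247%), with 348 at an unadjusted p under 0.05 and 1 call by DESeq2. It was at 49.8, 30.3, 193 and 220 CPM. Leaving out each library gave 5, 31, 66 and 59 calls in turn.

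**Figure D5:**
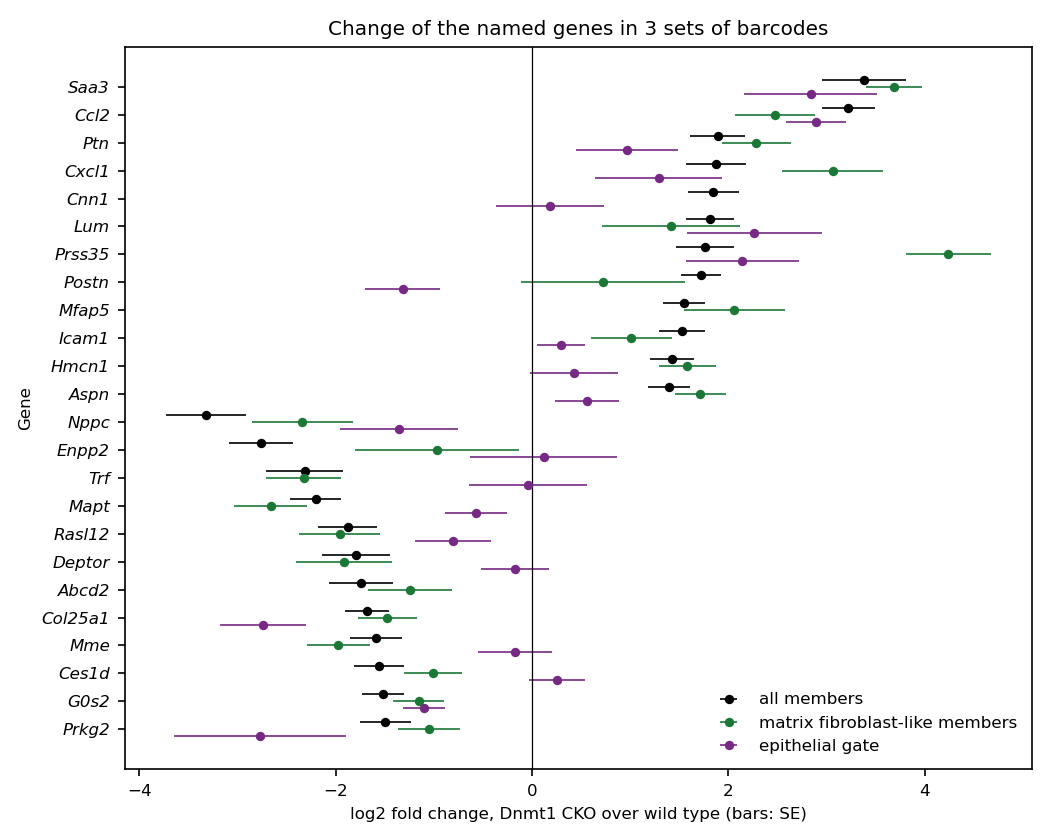
Log2 fold change (Dnmt1 CKO over wild type) with its SE for the 24 named genes in all members, in the matrix fibroblast-like members and in Epcam-positive barcodes, where each was tested. In the matrix fibroblast-like members Saa3 (3.69), Ptn (2.28), Trf (-2.32) and Mapt (-2.66) lie near their values over all members, Prss35 (4.24) is farther from 0 and Postn (0.72) and Enpp2 (-0.97) are nearer to it. Trf is near 0 in Epcam-positive barcodes (-0.04).

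The same contrast in the other lineages gave few calls. None of 14710 genes was called in Epcam-positive barcodes and none of 11501 in Ptprc-positive barcodes with edgeR, while 483 and 445 had an unadjusted p under 0.05. DESeq2 was not run there. In Cdh5-positive barcodes 20 of 12439 genes (0.161%) were called, 16 higher (0.129%) and 4 lower (0.0322%), among them Saa3 and Dcn, both higher in the mutant. The change in the members was tested against that in each lineage. It differed from Epcam-positive barcodes in 54 of 16017 genes (0.337%), higher in 33 (0.206%) and lower in 21 (0.131%). It differed from Cdh5-positive barcodes in 39 of 13893 genes (0.281%), higher in 25 (0.18%) and lower in 14 (0.101%). It differed from Ptprc-positive barcodes in 26 of 13733 genes (0.189%), higher in 15 (0.109%) and lower in 11 (0.0801%), and this last count was 207 and 131 without wild type replicates 1 and 2 and 16 without Dnmt1 CKO replicate 2. The first count was 236, 154 and 89 without wild type replicates 1 and 2 and Dnmt1 CKO replicate 2, and the second 67, 10, 202 and 311 without each library in turn.

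Among the named genes, Trf and Enpp2 differed from Epcam-positive and from Cdh5-positive barcodes, and Trf from Ptprc-positive barcodes too. Trf was at 337, 892, 288 and 905 CPM in Epcam-positive and at 1258, 1276, 1236 and 1358 in Ptprc-positive barcodes, without the fall seen in the members. Postn and Icam1 differed from Epcam-positive and Cdh5-positive barcodes. The changes of Postn, Icam1 and Enpp2 did not pass within the matrix fibroblast-like class, and the part of make-up in these differences was not tested. Icam1 was abundant in Epcam-positive barcodes, at 490, 383, 604 and 495 CPM. For Saa3 the difference from the other lineages did not pass (adjusted p = 0.897, 0.372 and 0.933, edgeR), and its values there are given above.

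Signalling lists had no calls in the members. None of 25 Wnt, 20 Fgf, 13 Hedgehog, 27 Tgf-beta and Bmp, or 18 insulin-like growth factor genes passed, and their medians lay between -0.14 and 0.11. The closest were Fgfr4, an Fgf receptor, at 53.5, 73.4, 21.1 and 28.8 CPM (log2 fold change -1.28, adjusted p = 0.0563, edgeR), and Rspo1, at 22.0, 33.4, 7.61 and 10.1 CPM (log2 fold change -1.57, adjusted p = 0.0564, edgeR). Vegfa, an angiogenic signal from mesenchyme and epithelium, was at 94.8, 136, 43.1 and 61.6 CPM (log2 fold change -1.08, adjusted p = 0.0684, edgeR). In all 3 genes the mutant libraries were below wild type. None of 23 p53 targets, 17 amino acid stress genes, 15 unfolded protein response genes, 20 hypoxia and glycolysis genes, 22 immediate early genes, 21 angiogenic signals, 12 Hox genes or 18 respiratory chain genes was called.

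Transcripts of other cells were present in the members. Markers of epithelium summed to 550, 457, 365 and 1124 CPM, beside 65390 to 91720 CPM of epithelial markers in Epcam-positive barcodes. None of 11 epithelial, 9 endothelial, 11 immune or 6 mesothelial markers tested was called, and Epcam, Cdh5, Ptprc and Upk3b were at 0 by the rule. None of the 3 chondrocyte, 2 neural crest, 6 erythroid, 4 cardiomyocyte or 10 cycling markers tested was called either, and 1 of 11 smooth muscle markers was, Cnn1. Scgb1a1, a secretory protein of club cells, was at 21.0, 38.4, 13.5 and 167 CPM in the members and at 173 in the germline-positive barcodes of Dnmt1 CKO replicate 2. Haemoglobin summed to 4195, 791, 7327 and 1442 CPM in the members and to 3032, 876, 16220 and 702 CPM in the matrix fibroblast-like ones. The part of either in the results was not tested.

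Cluster 5, led by Scgb1a1 and Scgb3a2 and left without a name, held 15, 4, 26 and 176 members. The genes that define clusters differ between the libraries, so cluster sizes were not tested. Its Dnmt1 was at 28.2 and 21.5 CPM in the mutant libraries, from 5 and 22 UMIs. Without clusters 5 and 8, 286 genes were called over the members, 47 of them among the 51, and Dnmt1 had a log2 fold change of 0.26.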

How the data were processed

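The authors deposited a UMI count for every gene in each barcode. Per the submitters' processing notes, the authors used bcl2fastq 2.20, Cell Ranger 3.1.0 and Seurat with GRCm38.p6; other steps and settings are not given in the sources used here. UMIs of the chosen barcodes were summed per library, with the 13 genes of the rule left out of the fits. Genes were filtered with filterByExpr, scaled with TMM and tested with edgeR 4.0.16 (quasi-likelihood, 2 libraries against 2, R 4.3.3), and adjusted over all genes tested. Lineage differences were tested as interactions. CPM values are shares of the summed UMIs, without TMM. Members were clustered in scanpy 1.11.5 and leidenalg 0.10.2 (2000 variable genes, 30 components, 15 neighbours) and named from marker lists; the score and margin a name needed were set after the clusters were seen. Subclasses needed at least 20 barcodes in every library. Positions are from GENCODE vM21. Members and lists were chosen with earlier results of these data known. Named genes are Dnmt1, the rule's genes, the largest changes (12 each way, 4 in a subclass) and up to 4 of each list by adjusted p. The scripts were tested on simulated data. Promoters matched 20 of 30 genes. Intervals and floors cover counting error only. Alternatives were RLE or library-size scaling, no filter, DESeq2 1.42.0, a replicate block, each library left out, stricter barcode rules, a wider germline rule, Scrublet, equal barcodes, Leiden 0.5 and 2.0, and thinning to 2000 UMIs; leaving out clusters 5 and 8 was chosen after seeing the data.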

Additional observations from a re-analysis of the deposited data

Results flagged for a closer look

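For 14 comparisons of named genes, the change in the members differed from the change in another lineage of the same libraries by an interaction test across all genes (edgeR, adjusted p under 0.05). Differences are given as the log2 fold change in the members minus that in the other lineage. Against Epcam-positive barcodes, Postn differed by 2.95 and Icam1 by 1.20, while Enpp2 differed by -3.04, Trf by -2.59, Ces1d by -1.87, Deptor by -1.75 and Mme by -1.49. Against Cdh5-positive barcodes, Postn differed by 2.62, Hmcn1 by 1.59 and Icam1 by 1.31, while Trf differed by -2.24 and Enpp2 by -1.92. Against Ptprc-positive barcodes, Ccl2 differed by 2.82 and Trf by -2.52. Within the matrix fibroblast-like members the changes of Postn, Icam1 and Enpp2 did not pass. The part of the members' make-up in these differences was not tested.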

How the results depend on the processing

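The members hold 1182954 UMIs in Dnmt1 CKO replicate 1 and 11873058 in wild type replicate 2, and the part of depth in the counts below was not tested. The count of 51 called genes was 411 without a filter on low counts, 117 with DESeq2, 94 with at least 6000 UMIs, 99 with at most 10% mitochondrial UMIs, 9 with at least 1% collagen UMIs, 90 with a wider germline rule and 15 with equal barcodes. It was 96 without cluster 8 and 286 without clusters 5 and 8, both chosen after seeing the data, and 150 to 638 with a library left out. The replicate numbers of the labels are not tied to a shared litter or day in the labels. Deviations of same-numbered libraries correlated at 0.123 over all genes tested, 0.079 over those averaging at least 4 on the log2 CPM scale and 0.317 over the latter without sex-linked genes. A replicate block gave 447 calls over the members, 226 in the matrix fibroblast-like class, 73 in cluster 0, 2 in cluster 7 and 5 in cluster 8, and all 51 were among the 447. The matrix fibroblast-like count of 78 was 132 without the filter, 203 at a Leiden resolution of 0.5 and 77 to 147 with a library left out. The cluster 0 count of 29 was 18 with library-size scaling, 45 without the filter, 11 with DESeq2, 10 with at least 6000 UMIs, 5 with the wider rule, 0 with equal barcodes (edgeR, 175 at an unadjusted p under 0.05; DESeq2 was not run on these) and 3 to 56 with a library left out. Cluster 7 gave 55 without the filter, 3 with DESeq2, 11 without Scrublet doublets and 15 to 39 with a library left out. Cluster 8 gave 0 with library-size scaling (edgeR, 353 at an unadjusted p under 0.05, against 1 with DESeq2), 67 without the filter and 5 to 66 with a library left out. The difference from Epcam-positive barcodes gave 30 with library-size scaling, 351 without the filter, 123 with at least 6000 UMIs, 34 with at most 10% mitochondrial UMIs, 24 with at least 1% collagen, 32 without doublets and 54 to 236 with a library left out. That from Cdh5-positive barcodes gave 19 with library-size scaling, 256 without the filter, 19 with DESeq2, 15 with at least 1% collagen, 76 with the wider rule, 21 with equal barcodes and 10 to 311 with a library left out. That from Ptprc-positive barcodes gave 17 with RLE scaling, 254 without the filter, 11 with at least 6000 UMIs, 46 with at most 10% mitochondrial UMIs, 17 with at least 1% collagen, 6 with equal barcodes and 16 to 207 with a library left out. The log2 fold change of Dnmt1 was -0.31 with at least 1% collagen UMIs and -0.14 to 0.46 with a library left out. The share of mutant members with Mki67 or Top2a was 6.27% at 2000 UMIs. Of the 24 named genes, 16 of 23 lost their call with at least 1% collagen UMIs and 13 of 24 with equal barcodes, and none changed direction. The causes were not tested. Stricter barcode rules could not be fitted in subclasses with under 20 barcodes in a library.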
